A study of Mus musculus with 12 samples.

Results

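The genes described here are 46 genes of the H3K4 and H3K27 methylation machinery, taken by gene symbol from the platform annotation. All 46 were measured among 19938 genes in all, and all 46 were among the 15309 genes tested. Methylation of histone H3 at lysine 4 (H3K4) marks promoters and enhancers in use, and tri-methylation at lysine 27 (H3K27me3) marks silenced genes. The KMT2 and SETD1 methyltransferases write H3K4 methylation in complexes that share a core of WDR5, RBBP5, ASH2L and DPY30. KDM6A (UTX), whose gene lies on the X chromosome and stays active on the inactive X, and its autosomal paralogue KDM6B (JMJD3) erase H3K27me3, and *Uty* is the Y-linked copy of *Kdm6a*. KDM6A is also a subunit of the KMT2C and KMT2D complexes, with PAXIP1 (PTIP), PAGR1A (PA1) and NCOA6. H3K27me3 is written by Polycomb repressive complex 2 (PRC2) and read by PRC1, and in ES cells many developmental genes carry both marks.

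*Kdm6a* was knocked down by RNAi in mouse ES cells of 2 lines, and the comparison asked here is whether a paralogue or a partner of KDM6A was higher once *Kdm6a* was low. PGK12.1 is a female line from blastocysts of a 129 female and a (129 X PGK)F1 male, WD44 is a male line of BL6 background, and each is a single line, so that sex and strain cannot be told apart. Cells of passage 14-18 grew with LIF and were depleted of MEF feeders on gelatin before RNAi. They received a pool of siRNAs to 3 sites of the *Kdm6a* mRNA or control siRNAs without a target. PGK12.1 experiments 1 and 2 had double RNAi, with 100 pmol for 48 h followed by 400 pmol for 24 h. PGK12.1 experiments 3 and 4 and WD44 experiments 1 and 2 had single RNAi, with 100 pmol for 48 h. Each of the 6 experiments had 1 control and 1 *Kdm6a* RNAi array, 12 arrays in all, and the number of arrays limits the precision. The study calls its array experiments independent, without saying for the WD44 pair whether separate cultures were used, so the spread between these may be technical. RNAi lowers an mRNA for a few days and removes no gene, and RNA of a culture cannot tell fewer cells with a transcript from less transcript per cell.

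Values are log2 intensities. A change is the difference, on the log2 scale, between the *Kdm6a* RNAi array and the control of the same number, and "called" means an adjusted p under 0.05 in limma over all genes tested. Array medians ran from 6.15 to 6.48 in PGK12.1 experiments 1 to 3, were 8.2 and 8.21 in the fourth, and lay between 8.03 and 8.08 in WD44, so levels of different experiments are not on 1 scale. ES cell markers lay at a median percentile of 98.0 to 99.3 among the genes of an array in each group, and embryonic fibroblast markers at 46.8 to 49.0. The summed level of the 10 fibroblast markers, in units of the array mean, ran from 1.92 to 2.37 on the PGK12.1 arrays but from 4.10 to 4.57 on those of WD44. The highest single marker reached percentile 64.8 in PGK12.1 and 89.7 in WD44. Of 9 ES cell markers 1 (*Utf1*) was called lower in PGK12.1, against 2.1% of all genes tested. In WD44 0 of the 9 were called, as were 0 of all genes tested. *Actb*, the control gene of the study, had a mean change of -0.04 in PGK12.1 and 0.04 in WD44.

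The RefSeq promoter table (GRCm38.p6, 250 bases before to 50 after a start) held 36 of the 46 genes. The windows of the targeted gene, of its Y-linked copy and of the 1 other gene called are shown. *Kdm2b* has 4 annotated starts, and 2 of the windows are given. Of those not shown, 1 overlaps the second *Kdm2b* window given. The other (chr5:122988458-122988757) lies near the first without overlapping it. Capitals mark the dinucleotide CG, which reads the same on both strands. Each is written 5′ to 3′ on the strand of the gene.
Kdm6a, chrX:18162325-18162624, plus strand: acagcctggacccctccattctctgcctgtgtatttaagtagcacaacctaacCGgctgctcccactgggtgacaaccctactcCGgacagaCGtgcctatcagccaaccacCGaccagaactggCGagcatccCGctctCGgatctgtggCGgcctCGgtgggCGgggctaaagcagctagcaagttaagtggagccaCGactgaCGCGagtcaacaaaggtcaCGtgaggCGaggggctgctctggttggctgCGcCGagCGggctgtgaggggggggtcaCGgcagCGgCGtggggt
Uty, chrY:1245710-1246009, minus strand: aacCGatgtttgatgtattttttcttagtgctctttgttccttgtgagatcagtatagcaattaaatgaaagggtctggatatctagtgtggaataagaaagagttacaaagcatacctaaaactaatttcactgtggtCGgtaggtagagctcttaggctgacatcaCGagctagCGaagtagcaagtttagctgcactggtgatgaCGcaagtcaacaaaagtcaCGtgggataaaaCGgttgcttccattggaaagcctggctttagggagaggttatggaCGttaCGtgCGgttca
Kdm2b, chr5:122989050-122989349, minus strand: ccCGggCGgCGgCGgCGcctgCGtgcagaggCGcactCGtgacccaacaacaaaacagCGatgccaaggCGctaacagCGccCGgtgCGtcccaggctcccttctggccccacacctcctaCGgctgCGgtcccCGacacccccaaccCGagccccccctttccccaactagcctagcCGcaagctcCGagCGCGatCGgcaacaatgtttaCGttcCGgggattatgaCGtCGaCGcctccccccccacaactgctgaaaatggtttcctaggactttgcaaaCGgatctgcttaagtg
Kdm2b, chr5:122900301-122900600, minus strand: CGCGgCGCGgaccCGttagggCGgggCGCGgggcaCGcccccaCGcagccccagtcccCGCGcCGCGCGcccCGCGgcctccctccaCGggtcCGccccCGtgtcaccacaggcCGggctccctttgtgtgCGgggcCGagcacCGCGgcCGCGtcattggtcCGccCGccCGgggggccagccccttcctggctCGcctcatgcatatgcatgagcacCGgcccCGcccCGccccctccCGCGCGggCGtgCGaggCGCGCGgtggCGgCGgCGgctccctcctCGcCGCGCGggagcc

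The *Kdm6a* window held 21 CG and that of *Uty* 10, while the *Kdm2b* windows shown held 28 and 49. Those of *Kdm2b* not shown held 18 and 47. Over the 36 genes, taking the first window of each, the median was 23.5 CG, against 7 over 27025 genes. At least 1 CG was present in 100% of the 36 windows and in 94.2% of the windows of all genes. The arrays read transcripts and do not tell the starts of a gene apart.

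*Kdm6a* was lower after RNAi in 6 of 6 experiments. On the PGK12.1 control arrays its log2 value was 9.37, 9.57, 10.03 and 11.86 in experiments 1 to 4, and on the *Kdm6a* RNAi arrays 8.10, 8.07, 8.61 and 10.90. In WD44 it was 11.29 and 11.29 on the control arrays and 10.35 and 10.37 after *Kdm6a* RNAi. Within every experiment the *Kdm6a* RNAi array was thus lower by 0.92 to 1.5. The mean change in PGK12.1 was -1.29 (SE 0.08, n = 4, limma adjusted p = 0.000293), a decrease by 59.0%. This call was lost in the methods' paired t-test (adjusted p = 0.153) and without the block (limma adjusted p = 1). Both settings called 0 of all genes tested in PGK12.1, against 890 in the main fit, so the loss is not particular to *Kdm6a*. In WD44 the mean change was -0.93 (SE 0.11, n = 2), or -47.5% on the linear scale. Its unadjusted p was 8.47e-06 in limma, with an adjusted p of 0.13. With a minimum level of 0.25 the WD44 value passed (limma adjusted p = 0.0227). The difference between the lines, -0.36 (95% interval -0.66 to -0.06), did not pass (limma adjusted p = 0.171). With the single RNAi experiments of PGK12.1 alone, which match WD44 in dose and time, it was -0.26 (limma adjusted p = 0.402).

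The paralogue *Kdm6b* was not called. Its log2 value in PGK12.1 was 8.02, 8.09, 7.97 and 10.41 on the control arrays and 8.20, 8.25, 7.98 and 10.45 after *Kdm6a* RNAi. In WD44 it was 10.34 and 10.28 on the control arrays and 10.29 and 10.24 after *Kdm6a* RNAi. The changes were 0.18 and 0.16 in the double RNAi experiments, 0.01 and 0.04 in the single RNAi experiments of PGK12.1, and -0.05 and -0.04 in WD44. The mean in PGK12.1 was 0.10 (95% interval -0.01 to 0.20, n = 4, limma adjusted p = 0.245), and in WD44 -0.04 (95% interval -0.19 to 0.10, n = 2, limma adjusted p = 0.777).

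*Uty* was near the bottom of the arrays in PGK12.1 and well above it in WD44, the male line. Its log2 value in PGK12.1 was 2.86, 2.91, 4.37 and 5.50 on the control arrays and 3.20, 3.17, 3.97 and 5.26 after *Kdm6a* RNAi. These values lay between the percentiles 2.0 and 11.3 of their arrays. In WD44 it was 9.63 and 9.68 on the control arrays and 9.55 and 9.50 after *Kdm6a* RNAi, at percentiles 65.5 to 67.3. *Uty* was not called in WD44, where its changes were -0.08 and -0.18 (mean -0.13, 95% interval -0.48 to 0.22, n = 2, limma adjusted p = 0.724). The fit shares 1 spread between the lines, and *Uty* reached the minimum level only through WD44. Its changes had an SD of 0.37 in PGK12.1, near the bottom of the arrays, and of 0.07 in WD44. The interval and p thus rest mainly on PGK12.1 and cannot tell whether *Uty* changed in WD44. In PGK12.1 the changes of 0.34, 0.26, -0.40 and -0.24 went both ways.

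**Figure D1:**
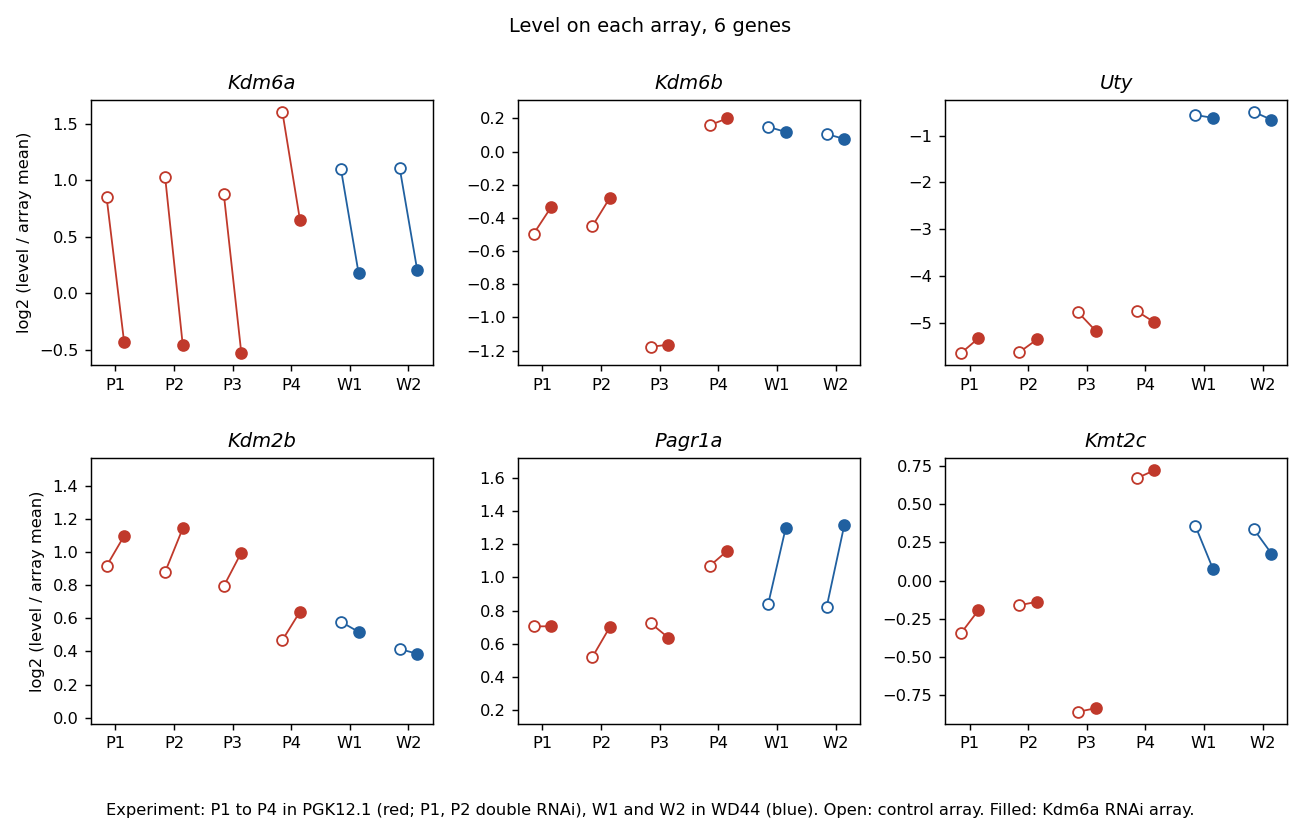
Level of 6 genes on each array, as log2 of the linear value over the array mean (vertical axis, with its own range in each panel), by experiment (horizontal axis). P1 to P4 are PGK12.1 experiments, of which P1 and P2 had double RNAi, and W1 and W2 are WD44 experiments. Open points are control arrays and filled points *Kdm6a* RNAi arrays, and a line joins those of 1 experiment. *Kdm6a* is lower in 6 of 6 experiments, *Kdm2b* is higher in 4 of 4 PGK12.1 experiments, and *Pagr1a* is higher in both WD44 experiments.

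In PGK12.1, 1 of the 46 genes was called higher, *Kdm2b*, against 3.71% of all genes tested, and 1 was called lower, *Kdm6a* itself, against 2.1%. A count of 1 in 46 is near these shares, so the call of *Kdm2b* does not set the 46 genes apart. *Kdm2b* encodes a demethylase of H3K36 whose CXXC domain binds unmethylated CG and which brings a variant PRC1 to such promoters. Its log2 value in PGK12.1 was 9.43, 9.42, 9.94 and 10.72 on the control arrays and 9.63, 9.67, 10.14 and 10.89 after *Kdm6a* RNAi. The changes were 0.20 and 0.25 in double RNAi and 0.20 and 0.17 in single RNAi, so each *Kdm6a* RNAi array was above its control. Their mean was 0.205 (SD 0.03, n = 4, 95% interval 0.11 to 0.30, limma adjusted p = 0.02), an increase by 15.3%. In WD44 the log2 value of *Kdm2b* was 10.77 and 10.59 on the control arrays and 10.69 and 10.55 after *Kdm6a* RNAi, a mean change of -0.06 (n = 2, limma adjusted p = 0.647). The difference between the lines was 0.265 (95% interval 0.11 to 0.42, limma adjusted p = 0.101), which did not pass. The PGK12.1 call was lost without experiment 1 (limma adjusted p = 0.0561), 2 (0.0882) or 3 (0.0574). It was also lost with double RNAi alone (limma adjusted p = 0.0994) or single RNAi alone (0.214). In the methods' paired t-test, which called 0 of all genes in PGK12.1, *Kdm2b* had an adjusted p of 0.145.

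In WD44 none of the 46 genes was called in limma, against 0% of all genes tested. At an unadjusted p under 0.05, 1 of the 46 was higher, *Pagr1a*, against 8.84% of all genes tested (1354 genes), and 6 were lower, against 7.23% (1107 genes). The 6 were *Kdm6a*, *Kmt2c*, *Kmt2d*, *Aebp2*, *Kdm2a* and *Kdm5a*. The methods' paired t-test called 0 of all genes, and limma with a trend and robust moderation called 12, among them *Kdm6a* and *Pagr1a*. The difference between the lines was called for none of the 46, against 0% of all genes tested. At an unadjusted p under 0.05 it was passed by 8 of the 46 (*Kdm6a*, *Kmt2a*, *Kmt2c*, *Setd1a*, *Paxip1*, *Pagr1a*, *Kdm2b* and *Kdm5a*), against 21% of all genes tested.

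**Figure D2:**
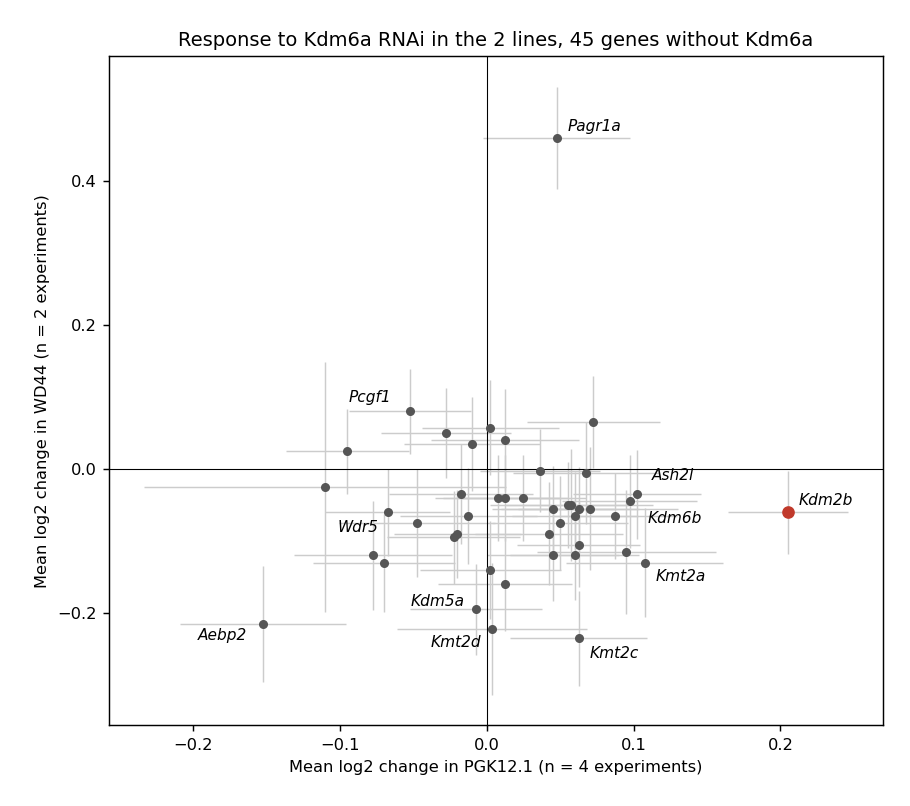
Mean log2 change after *Kdm6a* RNAi in PGK12.1 (horizontal axis, n = 4 experiments) against that in WD44 (vertical axis, n = 2) for 45 genes, *Kdm6a* left out. Grey bars are standard errors of the fit. *Kdm2b* (red) lies at 0.205 and -0.06, and *Pagr1a* at 0.05 and 0.46.

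Among the partners of KDM6A, *Pagr1a* had the highest value in WD44. It encodes a small subunit that binds PAXIP1 in the KMT2C and KMT2D complexes. Its log2 value in WD44 was 11.03 and 11.00 on the control arrays and 11.47 and 11.48 after *Kdm6a* RNAi. In PGK12.1 it was 9.22, 9.06, 9.87 and 11.32 on the control arrays and 9.24, 9.23, 9.78 and 11.41 after *Kdm6a* RNAi. *Pagr1a* was higher in 2 of 2 WD44 experiments, as were 31.3% of all genes tested. In PGK12.1 its changes of 0.02, 0.17, -0.09 and 0.09 went both ways. The mean change was 0.46 in WD44 (SD 0.03, n = 2, 95% interval 0.30 to 0.62), or 37.6% on the linear scale, with an unadjusted p of 8.20e-05 in limma and an adjusted p of 0.164. In PGK12.1 it was 0.05 (n = 4, limma adjusted p = 0.621), and the difference of -0.41 between the lines did not pass (limma adjusted p = 0.0867). The difference passed with a minimum level of 0.25 (limma adjusted p = 0.0383), and a trend with robust moderation called both it (0.00879) and the WD44 change (0.00279). One probe set reads *Pagr1a* here, and another that the annotation shares with *Prrt2* was not used. In WD44 the summed level of the 10 embryonic fibroblast markers was 4.10 and 4.31 on the control arrays. After *Kdm6a* RNAi it was 4.57 and 4.57, and the median change of the 10 was 0.105. Of the 10, 0 were called, but so were 0 of all genes in WD44, so this cannot show an unchanged feeder content. The part of the fibroblast markers in the WD44 values was not tested.

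The 2 methyltransferases that KDM6A partners were not called in either line. Of all genes tested 3.71% were called higher and 2.1% lower in PGK12.1, and 0% in WD44. For *Kmt2c* the changes were 0.17, 0.01, 0.02 and 0.05 in PGK12.1 and -0.30 and -0.17 in WD44. Its mean in WD44 was -0.235 (95% interval -0.38 to -0.09, n = 2, limma adjusted p = 0.185). For *Kmt2d* they were 0.13, 0.15, -0.23 and -0.04 in PGK12.1 and -0.29 and -0.16 in WD44. The mean of *Kmt2d* in WD44 was -0.22 (n = 2, limma adjusted p = 0.276), and its 2 probe sets gave -0.24 and -0.21.

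The other partners were not called either. *Paxip1*, a BRCT protein, had changes of 0.11, 0.06, 0.05 and 0.03 in PGK12.1 and -0.06 and -0.15 in WD44. *Ncoa6*, a coactivator of nuclear receptors, had 0.10, -0.02, -0.19 and -0.08 in PGK12.1 and -0.12 and -0.03 in WD44. Of the shared core, *Ash2l* had 0.09, 0.03, 0.10 and 0.19 in PGK12.1 and -0.02 and -0.05 in WD44. The WD40 protein gene *Wdr5* had -0.01, -0.07, -0.10 and -0.09 in PGK12.1 and -0.01 and -0.11 in WD44, and was beside *Kdm6a* the 1 gene of the 46 that was lower in 6 of 6 experiments. *Rbbp5* had 0.03, -0.07, 0.01 and -0.04 in PGK12.1 and 0.08 and -0.15 in WD44. *Dpy30* had 0.09, -0.03, -0.10 and 0.00 in PGK12.1 and 0.08 and -0.01 in WD44. None of the 4 core genes was called, against 3.71% (higher) and 2.1% (lower) of all genes tested in PGK12.1 and 0% in WD44. Mean changes of the 4 ran from -0.07 (*Wdr5*) to 0.10 (*Ash2l*, limma adjusted p = 0.199) in PGK12.1. In WD44 they ran from -0.06 (*Wdr5*) to 0.04 (*Dpy30*). With a trend and robust moderation *Ash2l* was called in PGK12.1 (limma adjusted p = 0.0386).

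All 6 H3K4 methyltransferases were higher in both double RNAi experiments of PGK12.1 and lower in both WD44 experiments. Of all genes tested 14.1% had this pattern, and so had 17 of the 46. This pattern was not among the planned sign counts, and it leaves out the single RNAi experiments of PGK12.1. Double RNAi in PGK12.1 and RNAi in WD44 differed in line, dose, time and array scale, which cannot be told apart. None of the 6 was called in either line. Of all genes tested 3.71% were called higher and 2.1% lower in PGK12.1, and 0% in WD44, so 0 of 6 is near these shares. The median genomic length of the 6 genes was 34.5 kb. Their median change was 0.06 in PGK12.1 and -0.135 in WD44, where the medians of all genes tested were 0.0075 and -0.005. In PGK12.1 the highest was *Kmt2a* (MLL1) with 0.11 and the lowest *Kmt2b* (MLL2), with 0.0025. In WD44 the highest was *Setd1b* with -0.115 and the lowest *Kmt2c*. The single RNAi experiments of PGK12.1 had both *Kmt2b* and *Kmt2d* lower and *Kmt2c* higher in 2 of 2. Among the 6 complex-specific subunits the lowest value in PGK12.1 was -0.05 (*Ncoa6*) and the highest 0.07 (*Cxxc1*, the CXXC subunit of the SETD1 complexes), and in WD44 they ranged from -0.105 (*Paxip1*) to that of *Pagr1a*. *Men1* (menin), which joins the KMT2A and KMT2B complexes, had mean changes of 0.03 and -0.04.

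**Figure D3:**
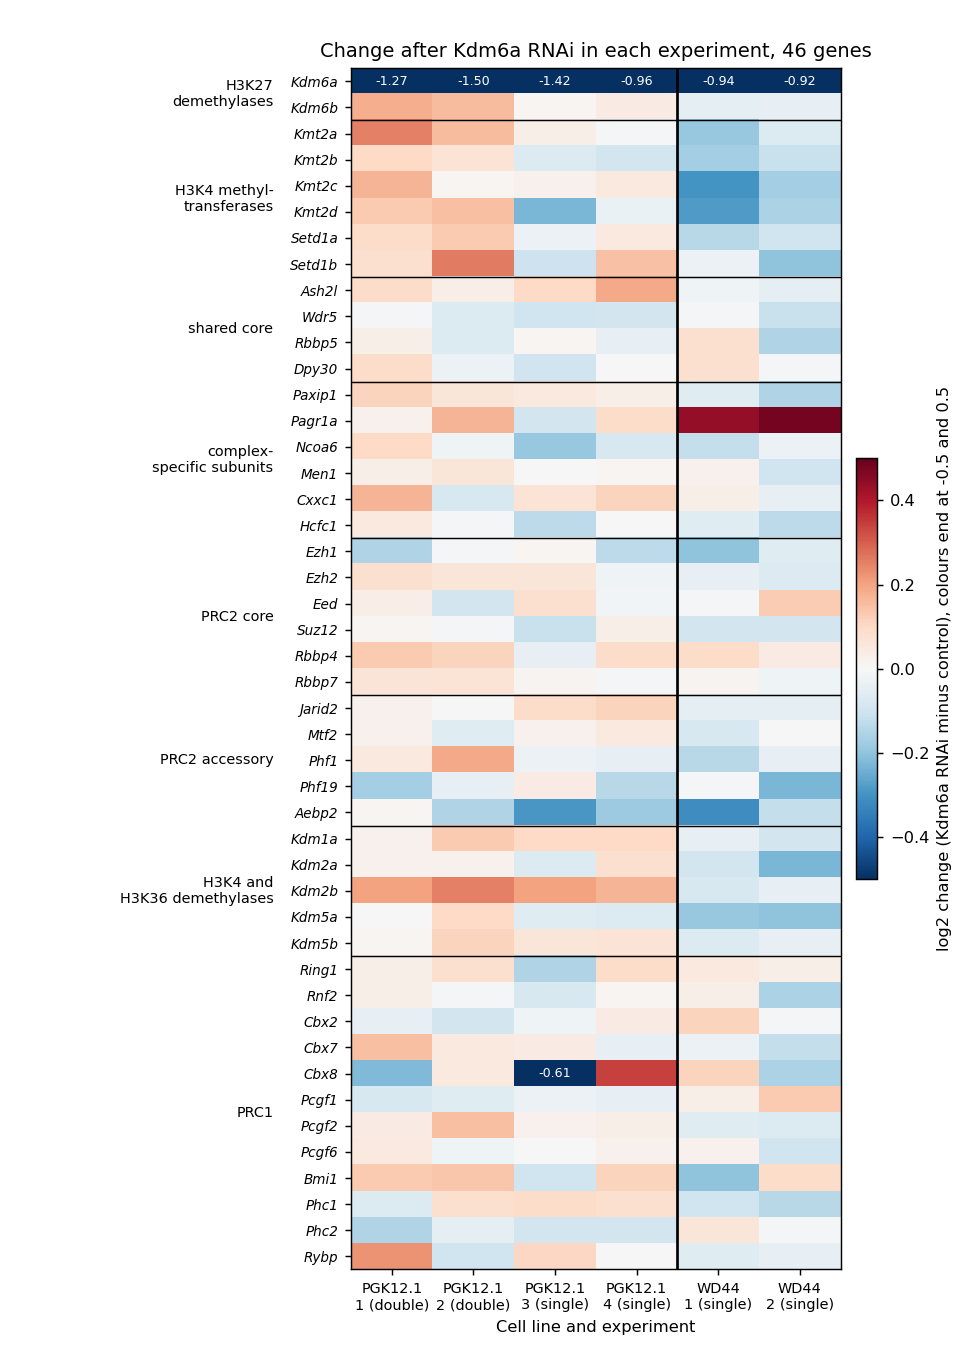
Log2 change after *Kdm6a* RNAi (colour, red higher and blue lower, ending at -0.5 and 0.5) of the 46 genes (rows, grouped by role) in each of the 6 experiments (columns). Numbers are printed where a change was beyond the colours. *Kdm6a* is low in 6 of 6 columns, *Kdm2b* is higher in the 4 PGK12.1 columns, and the 6 H3K4 methyltransferases are lower in both WD44 columns.

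PRC2, the writer of H3K27me3, had 0 of 6 core and 0 of 5 accessory genes called in either line. Of all genes tested 3.71% were called higher and 2.1% lower in PGK12.1, and 0% in WD44. In groups of this size 0 is near those shares. In the core, mean changes in PGK12.1 ran from -0.07 for *Ezh1* to 0.07 for *Rbbp4*, a histone-binding subunit, and in WD44 from -0.13 for *Ezh1* to 0.065 for *Rbbp4*. *Ezh2*, the main catalytic subunit in ES cells, had 0.08, 0.06, 0.06 and -0.02 in PGK12.1 and -0.04 and -0.07 in WD44. Of the accessory genes, *Aebp2* was lowest in both lines, at -0.15 (limma adjusted p = 0.148, n = 4) and -0.215 (limma adjusted p = 0.249, n = 2). *Jarid2*, which recruits PRC2 in ES cells, was highest in PGK12.1 at 0.055, and *Mtf2* was highest in WD44 at -0.04.

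Among the demethylases of H3K4 and H3K36, all 5 were lower in both WD44 experiments, as were 29 of the 46 genes and 33.1% of all genes tested. *Kdm5a*, an H3K4me3 demethylase, was the lowest in both lines, at -0.0075 in PGK12.1 and -0.195 in WD44 (limma adjusted p = 0.212, n = 2). *Kdm5b* had the highest value in WD44, -0.055, and *Kdm2b* in PGK12.1. Of the 12 PRC1 genes 0 were called in either line. The shares of all genes tested were 3.71% higher and 2.1% lower in PGK12.1 and 0% in WD44, and 0 of 12 is near these. The ring finger gene *Bmi1* was highest in PGK12.1 at 0.07, and *Cbx8*, a chromodomain gene, lowest at -0.11, with an SD of 0.40 over 4 experiments and a level of 0.18 of the array mean. *Pcgf1*, the partner of KDM2B in its variant PRC1, was highest in WD44 at 0.08, and *Phc1* lowest at -0.12.

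Besides *Kdm6a*, 2 members are X-linked. *Hcfc1*, the host cell factor that joins the SETD1 and KMT2A complexes, had changes of 0.05, -0.01, -0.13 and 0.00 in PGK12.1 and -0.06 and -0.13 in WD44. *Rbbp7*, a histone-binding subunit of PRC2, had 0.07, 0.07, 0.01 and -0.01 in PGK12.1 and 0.01 and -0.02 in WD44. Neither was called.

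**Figure D4:**
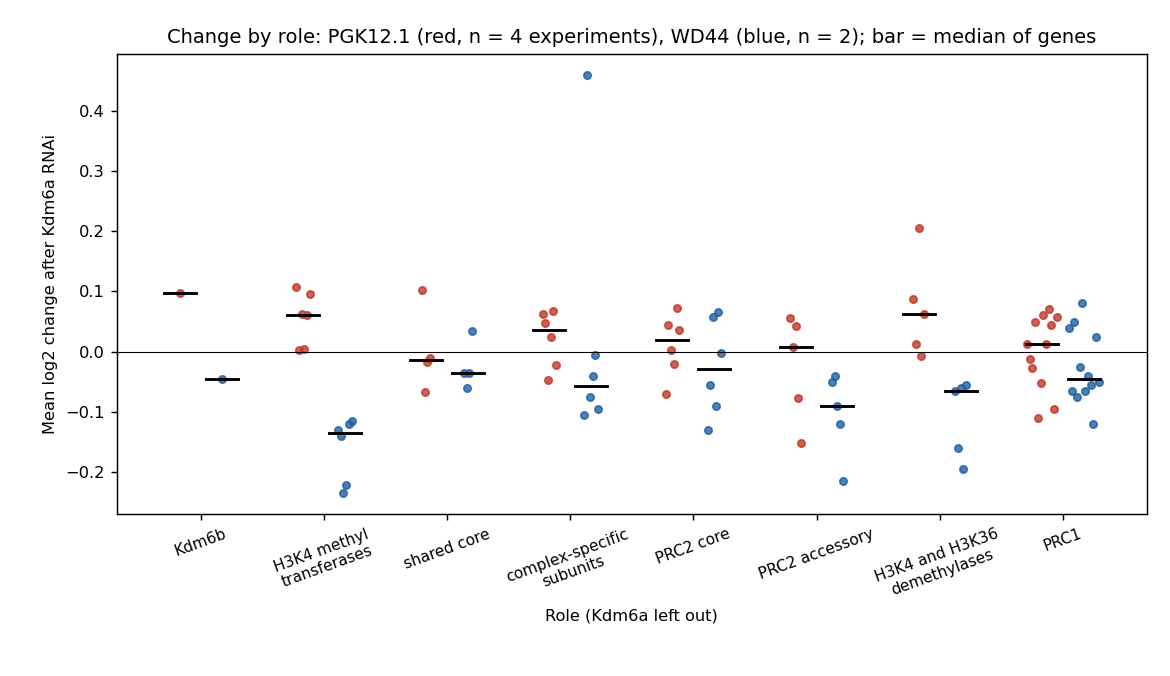
Mean log2 change after *Kdm6a* RNAi of each gene (vertical axis) by role (horizontal axis), *Kdm6a* left out, in PGK12.1 (red, n = 4 experiments) and WD44 (blue, n = 2). Black bars are medians over the genes of a role. The 6 H3K4 methyltransferases have a median of 0.06 in PGK12.1 and -0.135 in WD44.

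By sign alone, 8 of the 46 genes were higher in 4 of 4 PGK12.1 experiments (*Kdm6b*, *Kmt2c*, *Ash2l*, *Paxip1*, *Kdm1a*, *Kdm2b*, *Kdm5b* and *Pcgf2*), against 16.3% of all genes tested. Lower in 4 of 4 were 4 of the 46 (*Kdm6a*, *Wdr5*, *Pcgf1* and *Phc2*), against 10.6%. In WD44, 4 of the 46 were higher in 2 of 2 experiments (*Pagr1a*, *Rbbp4*, *Ring1* and *Pcgf1*), against 31.3%, and 29 were lower in 2 of 2, *Kdm6a* included, against 33.1%. Higher in 6 of 6 experiments were 0 of the 46, against 3.88%, and lower in 6 of 6 were 2, against 3.93%. The 8 genes that were higher in 4 of 4 PGK12.1 experiments were each lower in 2 of 2 WD44 experiments, a pattern held by 5.96% of all genes tested, and 1 gene (*Pcgf1*) had the opposite pattern, against 3.36%. Signs do not tell the size of a change, and some of these were small. With arrays centred on their median, the WD44 mean was 0 for *Kdm6b* and 0.01 for *Ash2l*. It stayed below 0 for *Kmt2c* (-0.19) and *Paxip1* (-0.06).

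Over all genes tested, changes after *Kdm6a* RNAi were weakly related to genomic length, and to level mainly in WD44 and in PGK12.1 experiment 1. The change correlated with the level at a Spearman rho of -0.309 and -0.277 in the WD44 experiments and at 0.301, 0.055, 0.005 and 0.067 in PGK12.1 experiments 1 to 4. With gene length it correlated at -0.183 and -0.135 in WD44 and at 0.136, 0.089, 0.134 and 0.101 in PGK12.1, so the sign was the same within a line and opposite between the lines. Among the 45 genes without *Kdm6a*, the change correlated with the level at 0.068 and 0.026 in WD44 and at 0.076, 0.0034, 0.365 and 0.233 in PGK12.1. With length it correlated among the 45 at -0.464 and -0.250 in WD44 and at 0.183, -0.063, 0.263 and -0.092 in PGK12.1. These are descriptions across genes of the same arrays (15309 for level and 15298 for length over all genes), and genes are not independent replicates. The median level of the 45 was 1.52 times the array mean, against 0.486 for all genes tested, and their median length 28.3 kb, against 20.4 kb. Of the 45, 62.2% were lower in 2 of 2 WD44 experiments, against 37.9% of the 3116 tested genes at or over that level. The median level of those 3116 genes was 2.67, so they are not matched to the 45 in level. The parts of level and length in the WD44 values were not tested. After loess normalization of the arrays of each experiment to each other, chosen after the relation to level was seen, the WD44 mean was -0.19 for *Kmt2c*, -0.17 for *Kmt2d* and 0.49 for *Pagr1a*, and *Kdm2b* was still called in PGK12.1 (0.175, limma adjusted p = 0.0344).

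Of 27 other genes of these pathways, 25 were measured and tested. In PGK12.1 1 was called higher, *Yaf2*, a paralogue of *Rybp* in variant PRC1, and 0 were called lower, and in WD44 0 were called. A share of 1 in 25 is near the 3.71% of all genes tested that were called higher in PGK12.1. The log2 value of *Yaf2* in PGK12.1 was 6.58, 6.51, 7.19 and 10.06 on the control arrays and 6.88, 6.95, 7.41 and 10.27 after *Kdm6a* RNAi. It was higher in 4 of 4 experiments, with changes of 0.30, 0.44, 0.22 and 0.21 and a mean of 0.29 (SD 0.11, n = 4, limma adjusted p = 0.0104). The call held with each experiment left out (limma adjusted p = 0.0241 to 0.0494) and was lost with double RNAi alone (0.0552), single RNAi alone (0.169), without the block (1) and in the methods' paired t-test (0.226). In WD44 its changes were -0.01 and -0.09 (mean -0.05, n = 2, limma adjusted p = 0.773). The difference between the lines, 0.34 (95% interval 0.15 to 0.54), did not pass (limma adjusted p = 0.0977). *Rybp* itself, a member of the 46, had a mean change of 0.06 in PGK12.1 and -0.05 in WD44.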

How the data were processed

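RNA of *Kdm6a* siRNA-treated and control-treated PGK12.1 and WD44 cells was hybridized to 12 arrays (Affymetrix Mouse Gene 1.0 ST). Per the labels, the authors' deposited log2 values came from RMA in Affymetrix Expression Console. Its version is not given in the sources used here, nor is the set of arrays that was normalized jointly. Changes were therefore taken within an experiment. The number of arrays limits the precision.

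Probe sets were named through GEO's platform annotation: of 35556, 21789 had 1 gene symbol, 1621 several (not used) and 12146 none. Where a gene had several probe sets (999 genes, 5 of the 46 members), their log2 values were averaged. The minimum for a test was a mean level of 0.1, as the linear value divided by the mean of its array. Tests used limma 3.58.1 in R 4.3.3 (lmFit, eBayes, two-sided) over all 12 arrays, with the experiment as a block, since labels number control and *Kdm6a* RNAi arrays alike and the methods name paired tests, and with 1 effect of *Kdm6a* RNAi per line. The 2 arrays of an experiment deviated together from their group means (r of 0.828 to 0.972 in PGK12.1 and 0.265 in WD44), in PGK12.1 partly through the scale of the arrays. The fit had 4 residual and 5.66 prior degrees of freedom, and p-values were adjusted by Benjamini-Hochberg over 15309 genes, at 0.05. The spread is shared between the lines and moderated over all genes, so WD44 p-values rest only in small part on the spread between the WD44 experiments.

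The members, the role groups, the markers and the other pathway genes were chosen with earlier results of these data known. The relations of changes to level and length (of the RefSeq gene span) were examined after the changes were seen. Sign patterns that were opposite between the lines were not among the planned counts. All members were accounted for. Those named with a value in each experiment were *Kdm6a*, *Kdm6b*, the KMT2C and KMT2D complex, the X-linked members, *Uty* and every gene called, and the highest and lowest of each role group were named with their means. *Kmt2a*, *Ezh2*, *Men1* and *Rybp* were added with their values seen. Alternatives were other minimum levels, single probe sets, median centring, no block, trend with robust moderation, each line by itself, double or single RNAi alone, the methods' paired t-test, each experiment left out and, chosen after seeing the data, loess within each experiment and every alternative for *Yaf2*. The code was tested on simulated data. Plots were made in matplotlib 3.10.9 under Python 3.11.15.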

Additional observations from a re-analysis of the deposited data

Results flagged for a closer look

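In 3 of 46 genes, 1 of the 4 PGK12.1 experiments stood apart from the others in its change after *Kdm6a* RNAi, by Dixon's criterion at 95%. Chance alone sets about 1 in 20 groups apart in this way. *Pcgf2* had a change of 0.15 in experiment 2 and 0.02 to 0.04 in the others. *Bmi1* had -0.1 in experiment 3 and 0.11 to 0.14 in the others. *Phc1* had -0.07 in experiment 1 and 0.08 to 0.09 in the others. All 3 are PRC1 genes and none was called in either line.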

How the results depend on the processing

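With 4 and 2 experiments, small changes can be missed, and the WD44 values rest on 2 pairs of arrays. In PGK12.1, where 2 of the 46 genes were called, 0 were called without the replicate block (*Kdm6a* kept -1.29, limma adjusted p = 1), 0 in the methods' paired t-test (*Kdm6a* adjusted p = 0.153, with 7 of the 46 past an unadjusted 0.05), and 1 (*Kdm6a*) with double or single RNAi alone. Without the block and in the paired t-test 0 of all genes were called in PGK12.1, against 890 in the main fit. Leaving out 1 experiment in turn gave 1 to 2 of the 46, with 1 without experiment 1, 2 or 3. In WD44, where 0 were called, 1 was called with a minimum level of 0.25 (*Kdm6a*, -0.93, limma adjusted p = 0.0227), 2 with trend and robust moderation (*Kdm6a* at 0.00279, and *Pagr1a*), and 0 to 1 with an experiment left out, *Kdm6a* passing without PGK12.1 experiment 4 (limma adjusted p = 0.0157). *Kdm6a* ranged from -0.94 to -0.92 in WD44 and from -1.40 to -1.22 in PGK12.1 with an experiment left out. The difference between the lines, with 0 called, had 1 with a minimum level of 0.25 (*Pagr1a*) and 3 with trend and robust moderation (*Kmt2c*, *Kdm2b* and *Pagr1a*). The causes were not tested.

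Of 555 single-gene values under the alternatives, 19 changed sign, 0 of them of a value that had passed. With single RNAi alone, *Kmt2d* in PGK12.1 was -0.13, and with double RNAi alone *Ncoa6* was 0.04, *Dpy30* 0.03 and *Hcfc1* 0.02 there. With median centring, *Kmt2d* was -0.016 in PGK12.1, and *Ash2l* 0.01, *Rbbp5* 0.01 and *Rbbp7* 0.0425 in WD44. With loess, *Kmt2d* was -0.025 in PGK12.1, and *Kdm6b* 0.0037, *Rbbp5* 0.012 and *Rbbp7* 0.0043 in WD44. With an experiment left out, *Kmt2d* in PGK12.1 ranged from -0.045 to 0.082 (below 0 without experiment 1 or 2), *Dpy30* from -0.043 to 0.02 and *Hcfc1* from -0.047 to 0.013 (both above 0 without experiment 3). In WD44, *Rbbp5* ranged from -0.15 to 0.08 and *Rbbp7* from -0.02 to 0.015 (both above 0 without WD44 experiment 2), and *Dpy30* from -0.01 (without WD44 experiment 1) to 0.08.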
